A study of Mus musculus with 6 samples.

Results

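The creatine and adenylate energy shuttle was examined as 8 genes in a fast-twitch muscle of the hindlimb, extensor digitorum longus (EDL), of mice that lack Akt1 and Akt2 in muscle. The 8 genes were taken by symbol, as Ckm, Ckmt2, Ckb, Ak1, Ampd1, Slc6a8, Gamt and Gatm, out of 24411 genes in the table, and all 8 had enough counts to be tested. RNA sequencing covered 3 mAktDKO mice, which carry floxed Akt1 and Akt2 with Cre under the Mlc1f promoter, and 3 control mice with the same floxed alleles and no Cre. Both groups were 50 weeks old, of the C57BL/6J strain according to the labels, and male as far as the general statement in the methods applies to them. The study chose this myosin light chain promoter for Cre specific to skeletal muscle, and its discussion describes Mlc1f as mainly a fast-twitch gene. Which cells of the EDL lost the Akt genes was not measured here. The question was how the RNA of an energy-buffering system of fast muscle compares between mice with and without the 2 kinases.

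Muscle contraction can consume ATP faster than mitochondria deliver it. Creatine kinases bridge the gap by moving a phosphate between ATP and creatine: a mitochondrial form charges creatine near the site of ATP synthesis, and a cytosolic form recharges ADP at the myofibrils and the calcium pump. Adenylate kinase makes ATP and AMP from a pair of ADP molecules, and AMP deaminase removes the AMP as IMP, the entry to the purine nucleotide cycle. Creatine itself is made in 2 steps, by Gatm and then Gamt, mostly in kidney, pancreas and liver, and muscle takes it up through the transporter Slc6a8.

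The genes lie on 7 chromosomes of the mouse genome build GRCm38.p6 (RefSeq coordinates, the assembly of mm10). Ckm, the cytosolic muscle creatine kinase, is at chr7:19411094-19421583 on the plus strand. Ckmt2, the sarcomeric mitochondrial creatine kinase, is at chr13:91853386-91876923 on the minus strand. Ckb, the cytosolic brain-type creatine kinase, is at chr12:111669355-111672338 on the minus strand. Ak1, the cytosolic adenylate kinase of muscle, is at chr2:32621758-32635058 on the plus strand, and Gatm is on the minus strand of the same chromosome at chr2:122594473-122611277. Ampd1, the muscle AMP deaminase, is at chr3:103073897-103099720 on the plus strand, Slc6a8 at chrX:73673133-73682502 on the plus strand and Gamt at chr10:80258151-80261025 on the minus strand. Of the targeted loci, Akt1 lies 0.981 Mb from Ckb and Akt2 lies 8.17 Mb from Ckm. The exons of Ckm share 451 bases with A930016O22Rik on the opposite strand, which had 7 to 40 counts in a mouse, and those of Ckmt2 share 84 bases with 1700119I11Rik on the opposite strand. Whether counting used the strand is not given in the sources used here.

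RefSeq promoters of 300 bases, from 250 before to 50 after the start of transcription, were at hand for 6 of the 8 genes, with 9 promoters in all. The promoters of Ckm and Ckmt2 are shown because they are the highest gene of the shuttle and the gene with the smallest p-value among the 8. Those of Ckb and Gatm are shown as genes whose mean was higher in the mAktDKO mice, and that of Gamt, whose mean was also higher, is not shown. Each is written from 5′ to 3′ on the strand of its gene, as Ckm at chr7:19410844-19411143 (plus), Ckmt2 at chr13:91876836-91877135 (minus), Ckb at chr12:111672289-111672588 (minus) and Gatm at chr2:122611228-122611527 (minus). Capitals mark matches to an E-box (CANNTG, the core bound by MyoD-family factors) or, in Ckb, to a MEF2 motif (CTA and TAG with 4 bases of any kind between them).
Ckm: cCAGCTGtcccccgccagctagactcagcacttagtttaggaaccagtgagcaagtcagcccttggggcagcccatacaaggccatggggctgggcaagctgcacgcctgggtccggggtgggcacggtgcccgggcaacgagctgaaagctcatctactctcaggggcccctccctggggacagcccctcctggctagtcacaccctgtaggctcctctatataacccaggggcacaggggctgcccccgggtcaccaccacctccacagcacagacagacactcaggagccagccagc
Ckmt2: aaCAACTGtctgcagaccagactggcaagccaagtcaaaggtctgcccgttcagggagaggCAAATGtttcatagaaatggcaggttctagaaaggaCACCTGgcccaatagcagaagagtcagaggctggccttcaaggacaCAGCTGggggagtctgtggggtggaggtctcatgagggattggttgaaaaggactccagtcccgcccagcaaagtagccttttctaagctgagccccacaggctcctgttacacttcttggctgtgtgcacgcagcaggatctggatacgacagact
Ckb: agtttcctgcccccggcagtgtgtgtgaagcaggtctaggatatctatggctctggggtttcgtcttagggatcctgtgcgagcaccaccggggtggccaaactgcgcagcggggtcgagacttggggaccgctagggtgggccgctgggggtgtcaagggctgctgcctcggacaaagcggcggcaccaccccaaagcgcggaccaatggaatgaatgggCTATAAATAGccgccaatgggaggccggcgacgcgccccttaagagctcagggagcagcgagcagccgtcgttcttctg
Gatm: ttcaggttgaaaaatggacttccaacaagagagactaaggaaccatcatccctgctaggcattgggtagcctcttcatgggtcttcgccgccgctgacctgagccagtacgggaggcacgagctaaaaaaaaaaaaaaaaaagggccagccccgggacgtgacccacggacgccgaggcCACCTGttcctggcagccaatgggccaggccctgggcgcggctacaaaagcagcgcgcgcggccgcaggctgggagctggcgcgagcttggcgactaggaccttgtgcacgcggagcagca
The letters CANNTG occurred 4 times in the window of Ckmt2, once in those of Ckm and Gatm and nowhere in that of Ckb. An E-box was present in 8 of the 9 promoters, beside 72.3% of all 32851 mouse promoters of this length, which had 1.39 matches on average. By gene it was 5 of 6, as several of the 9 promoters belong to Ak1. The MEF2 letters, present in 3.69% of all promoters, were found in Ckb only. The FoxO motif TGTTTAC was searched on both strands, is present in 3.65% of all promoters and had no match in the 9. The half-site AAGGTCA of estrogen-related receptors, also searched on both strands, is present in 4.72% of all promoters and had a match in 1 of the promoters of Ak1. The E-box and MEF2 motifs read the same on both strands. These matches are descriptions of 300 bases and say nothing about which factor binds there.

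Total counts were between 13738795 and 15445523 per mouse, so that 3 counts correspond to 0.180 to 0.227 CPM (CPM, counts scaled to the library total with the TMM method, covering counting error only). The labels list the samples as separate mice by genotype, and the p-values measure the spread between these 3 and 3 samples. No column was a copy of another, since the chi-square of counts per degree of freedom was at least 7.64 for every pair. The control mouse numbered 2 stood apart from the rest, with a Pearson r of log2 CPM of 0.961 to 0.977 to the other mice across genes, against 0.978 to 0.989 among the others. Values without it are given where they matter. The targeted genes matched the labels in direction. Akt2 had 51.3, 49.1 and 52.7 CPM with the deletion and 172, 133 and 143 CPM in controls (log2 fold change -1.55, standard error 0.11, adjusted p = 0.000923, edgeR). Akt1 had 58.9, 56.8 and 51.4 CPM against 66.4, 65.5 and 66.5 CPM (log2 fold change -0.25, adjusted p = 0.115, edgeR), and since counts are per gene they do not show how much of its targeted part was lost.

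None of the 8 genes passed the threshold of adjusted p under 0.01 in edgeR's quasi-likelihood test, where 0.0233% of the 12892 tested genes passed. The 2 muscle creatine kinases Ckm and Ckmt2 and the adenylate kinase Ak1 had lower values in each mAktDKO mouse than in any control mouse, and Ampd1 and Gatm had higher values in every mAktDKO mouse. Ckb, Slc6a8 and Gamt overlapped between the groups. With TMM scaling, groups without overlap were thus found for 5 of the 8 genes, beside 31.1% of all tested genes. Of all tested genes 14.6% were higher and 16.6% lower. With library totals Ak1 overlapped, and Slc6a8 was higher in every mAktDKO mouse. At an adjusted p under 0.05, 1 of the 8 genes passed (Ckmt2, lower), beside 1.18% of all genes, of which 0.264% were higher and 0.915% lower. At an unadjusted p under 0.05, 3 of the 8 passed (Ckmt2 and Ak1 lower, Gatm higher), beside 24.5%, of which 11.4% were higher and 13.1% lower. Of the 8 estimates 4 lay above 0, beside 52.5% of all genes, and 4 below, beside 47.5%. With the Wald test of DESeq2 at an adjusted p under 0.01, 1 of the 8 passed (Ckmt2, lower), beside 3.55% of the 9616 genes to which it gave an adjusted p, of which 0.936% were higher and 2.61% lower. With limma voom 0 of the 8 passed, and 6 had an unadjusted p under 0.05 (3 higher, 3 lower), beside 25.2% of all genes.

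**Figure D1:**
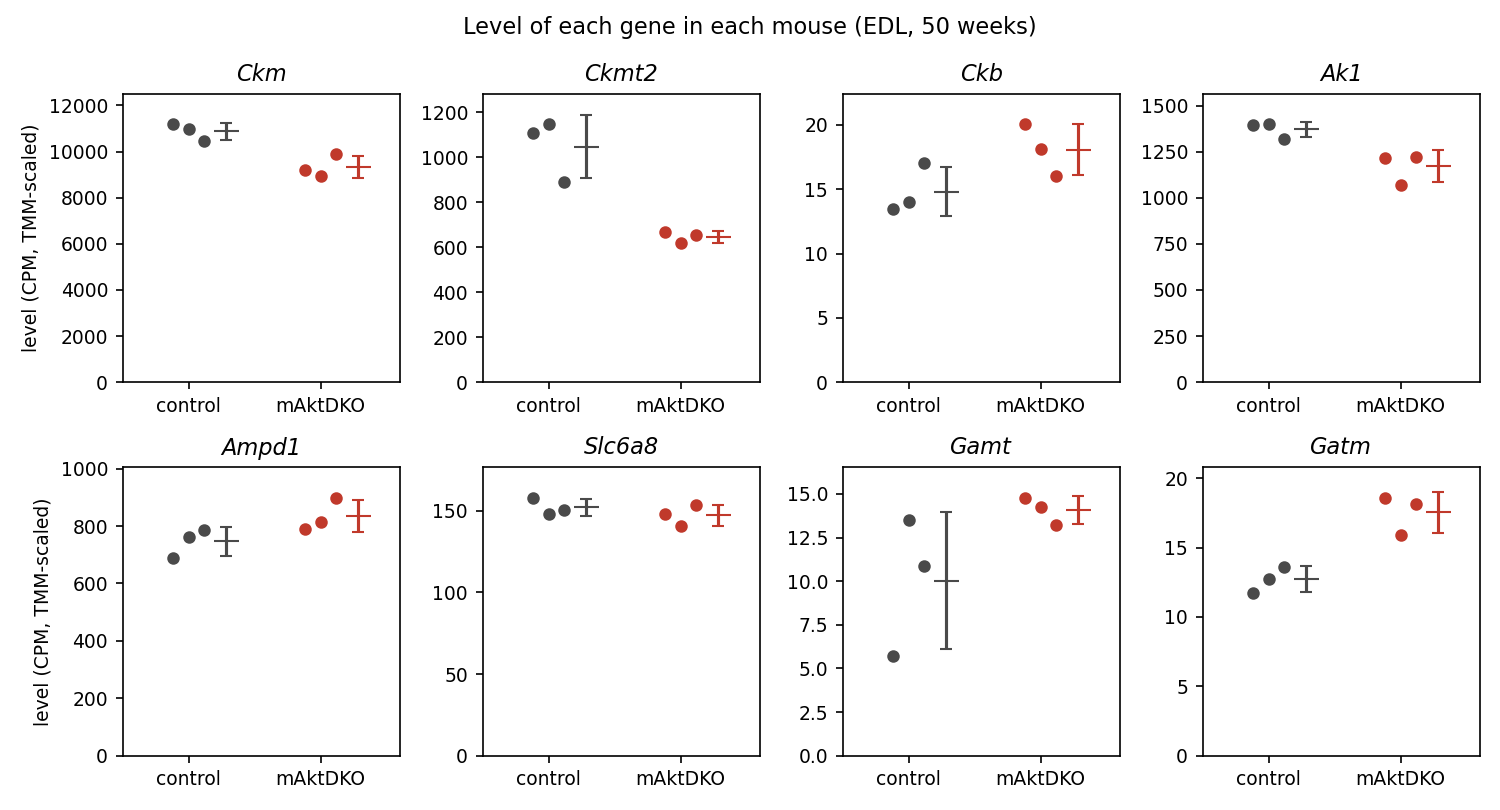
Level of the 8 genes in each mouse on the vertical axis (TMM-scaled CPM, each panel from 0), with control mice in gray and mAktDKO mice in red, n = 3 each. Points are mice in the order of their numbers and the bar is the mean ± SD. The 3 mAktDKO mice lie below all control mice for Ckm, Ckmt2 and Ak1 and above them for Ampd1 and Gatm.

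Ckm was among the most abundant RNAs of the muscle, 9th of 24411 genes by mean CPM. It had 9200, 8944 and 9881 CPM in mAktDKO mice 1 to 3, and 11178, 10987 and 10457 CPM in the control mice numbered 2 to 4. The groups did not overlap, and the distance between the highest mAktDKO and the lowest control mouse was small beside the level of the gene. The means were 9342 ± 484 and 10874 ± 373 CPM (SD, n = 3 each), a difference of -14.1% with a 95% interval from -26.6% to 0.553%. The log2 fold change was -0.22 (standard error 0.10, edgeR adjusted p = 0.215), and with library totals it was -0.083 (adjusted p = 0.453). Ckm took 0.987%, 0.972% and 0.975% of all counts in the mAktDKO mice and 1.04%, 1.07% and 1.01% in the control mice. This share, which is the level scaled by library totals, was also lower in every mAktDKO mouse (p = 0.1 in a two-sided exact permutation test, which cannot go lower with 3 against 3).

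Ckmt2, which couples creatine to ATP at the inner mitochondrial membrane, had the lowest ratio of the mAktDKO to the control mean among the 8 genes. Its level was 668, 617 and 655 CPM with the deletion and 1109, 1147 and 889 CPM in controls. The mAktDKO mice were close to each other and the control mouse numbered 4 was the lowest of its group, still above all of them. Means were 647 ± 26.6 and 1048 ± 139 CPM (SD, n = 3 each), a difference of -38.3% with a 95% interval from -48.2% to -26.6%. The log2 fold change was -0.70 (standard error 0.11, edgeR adjusted p = 0.0394), and the gene ranked 44th of 12892 by p-value. Its adjusted p rose to 0.116, 0.220 and 0.115 without mAktDKO mouse 1, 2 or 3 and to 0.0911 without control mouse 3, with the log2 fold change between -0.80 and -0.63 in all 6 such fits.

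Ckb, the creatine kinase of brain and smooth muscle that is low in adult fast fibers, had 20.0, 18.2 and 16.0 CPM with the deletion and 13.4, 14.0 and 17.0 CPM in controls. The lowest mAktDKO mouse was below the highest control mouse. The means were 18.1 ± 2.00 and 14.8 ± 1.93 CPM (SD, n = 3 each), and the log2 fold change was 0.29 with a 95% interval from -0.0016 to 0.58 (standard error 0.13, edgeR adjusted p = 0.205). The fourth creatine kinase gene, Ckmt1, the ubiquitous mitochondrial form, had a single count in 1 mouse and was not tested.

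Ak1, which pairs ADP molecules into ATP and AMP, had 1216, 1070 and 1223 CPM with the deletion and 1393, 1398 and 1320 CPM in controls. With TMM scaling all mAktDKO mice were below all control mice, with mouse 2 the lowest. With library totals the groups overlapped, as mAktDKO mouse 1 lay above control mice 2 and 4. The means were 1170 ± 86.6 and 1370 ± 43.4 CPM (SD, n = 3 each), a difference of -14.6%, close in size to that of Ckm. The log2 fold change was -0.23 with a 95% interval from -0.44 to -0.02 (standard error 0.092, edgeR adjusted p = 0.172), and with library totals it was -0.092 (adjusted p = 0.45).

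Ampd1, which deaminates AMP to IMP, had 790, 815 and 898 CPM with the deletion and 689, 764 and 787 CPM in controls. The groups did not overlap, by a margin of under 1% of the level. The means were 834 ± 56.4 and 746 ± 50.8 CPM (SD, n = 3 each), a difference of 11.8% with a 95% interval from -3.46% to 29.4%. Its log2 fold change was 0.16 (standard error 0.094, edgeR adjusted p = 0.311) and lay at 0.089 without mAktDKO mouse 3, at 0.11 without control mouse 2 and at 0.29 with library totals (adjusted p = 0.0852).

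The creatine transporter Slc6a8 was the gene with the smallest difference. It had 148, 141 and 153 CPM with the deletion and 158, 148 and 150 CPM in controls, with overlapping groups. The means were 147 ± 6.37 and 152 ± 5.13 CPM (SD, n = 3 each). The log2 fold change was -0.05 (standard error 0.076, edgeR adjusted p = 0.737). The 95% interval of the difference was from -14.0% to 9.09% and holds for TMM scaling only. Without 1 mouse the estimate lay between -0.090 (without mAktDKO mouse 3) and -0.013 (without mAktDKO mouse 2), with -0.019 without control mouse 2. With scaling by library totals it was 0.091 instead (edgeR adjusted p = 0.399), larger in size than the -0.083 of Ckm. On that scale every mAktDKO mouse was above every control mouse for Slc6a8.

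Both enzymes of creatine synthesis were expressed at a low level in EDL. Gatm, which transfers the amidino group of arginine to glycine in the first step, had 18.6, 15.9 and 18.2 CPM with the deletion and 11.7, 12.8 and 13.6 CPM in controls. Every mAktDKO mouse was above every control mouse. The means were 17.5 ± 1.46 and 12.7 ± 0.933 CPM (SD, n = 3 each), a difference of 38.0% with a 95% interval from 16.2% to 64.0%. Its log2 fold change was 0.46 (standard error 0.11, edgeR adjusted p = 0.0642), and scaling by library totals gave an adjusted p of 0.0492.

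Gamt, which methylates guanidinoacetate to creatine in the second step, had 14.8, 14.3 and 13.2 CPM with the deletion and 5.73, 13.5 and 10.9 CPM in controls. The control mouse numbered 2, the library that stood apart, was far below the rest with 82 counts against 185 and 144 in the other control mice. The coefficient of variation was 39.4% among control and 5.56% among mAktDKO mice. The means were 14.1 ± 0.784 and 10.04 ± 3.95 CPM (SD, n = 3 each), a log2 fold change of 0.49 (standard error 0.25, edgeR adjusted p = 0.253) that was 0.21 without control mouse 2 and 0.77 without control mouse 3.

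**Figure D2:**
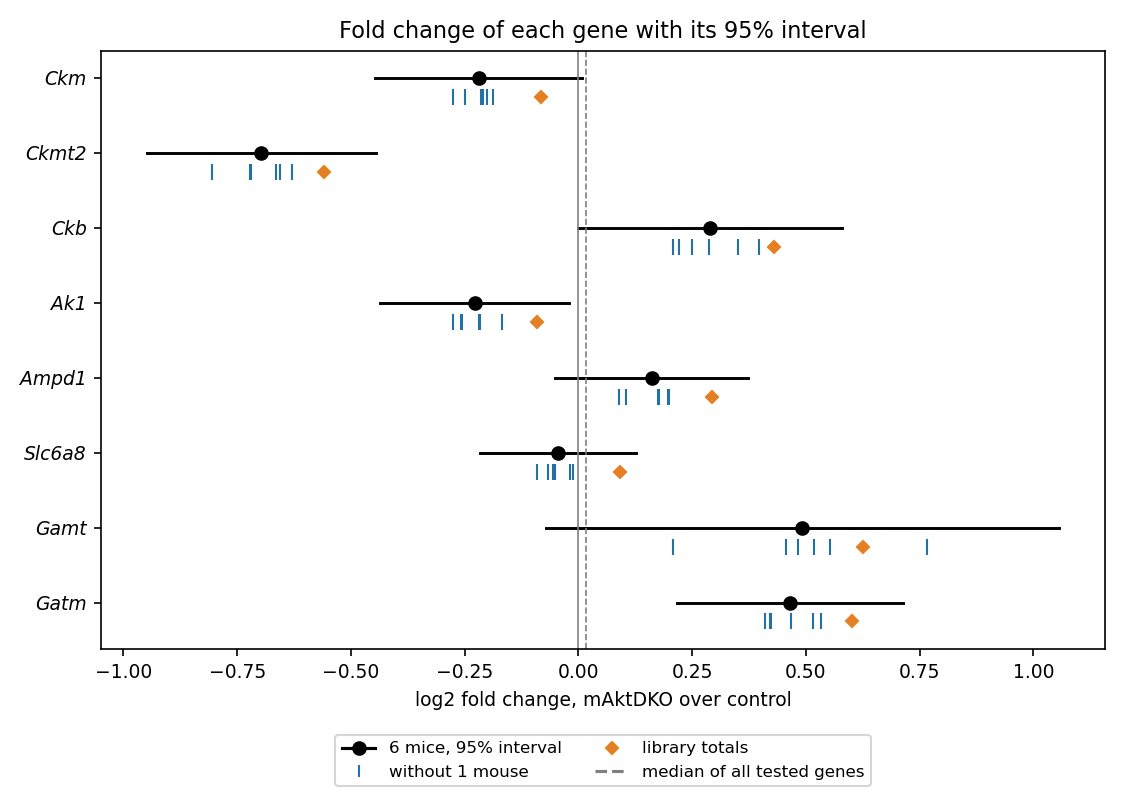
Log2 fold change of mAktDKO over control mice on the horizontal axis for the 8 genes on the vertical axis. Circles are estimates from all 6 mice with 95% intervals, blue ticks are estimates without 1 mouse, orange diamonds use library totals, the solid line is 0 and the dashed line the median of all tested genes (0.017). The intervals of Ckmt2, Ak1 and Gatm do not reach 0, and the diamonds lie to the right of every circle.

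Scaling by library totals in place of TMM moved the median log2 fold change of all tested genes from 0.017 to 0.16, and the estimates of single genes with it. Relative to the median of all genes, the log2 fold changes of the 8 genes were nearly the same under both, for example -0.24 for Ckm, -0.71 for Ckmt2 and 0.45 for Gatm with TMM. The 8 genes together took 1.296%, 1.26% and 1.27% of all counts in the mAktDKO mice and 1.35%, 1.41% and 1.31% in the control mice. The mean share was 1.28 ± 0.0172% and 1.36 ± 0.0466% (SD, n = 3 each, exact permutation test, two-sided p = 0.1). Most of that difference was Ckm, with a mean share of 0.978 ± 0.00812% and 1.04 ± 0.0299%. The other 7 genes had 0.298% and 0.320% (exact permutation test, two-sided p = 0.2).

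Levels of different genes were compared as CPM per kb of transcript. In the control mice Ckm had 3966 CPM per kb for its transcript of 2742 bases, or 8805 for the shorter coding transcript of 1235 bases. It was followed by Ckmt2 with 706 ± 93.7, Ak1 with 657 ± 20.8, Ampd1 with 319, Slc6a8 with 45.9, Gamt with 10.2, Ckb with 10.1 and Gatm with 5.32 CPM per kb (means, n = 3). Of the neighbors in this order, Ckmt2 and Ak1 overlapped in the control mice, as did Gamt and Ckb. In the mAktDKO mice Ak1 came second with 561 ± 41.5 and Ckmt2 next with 435 ± 17.9 CPM per kb, without overlap, while Gamt and Ckb overlapped again. The steps were large elsewhere in the control mice. Ckm lay 5.62-fold above Ckmt2 by its transcript of 2742 bases, and further above it by the shorter one. Ampd1 lay 6.94-fold above Slc6a8 and Slc6a8 4.52-fold above Gamt. Per kb of transcript, Ckm, Ckmt2, Ak1 and Ampd1 thus lay above the transporter Slc6a8, and the enzymes of creatine synthesis lay below it, as did Ckb.

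Ratios of 2 genes in the same mouse do not depend on the scaling between libraries. The mitochondrial to cytosolic ratio Ckmt2/Ckm was 0.0727, 0.0690 and 0.0663 in the mAktDKO mice and 0.0992, 0.104 and 0.0850 in the control mice. It was lower in every mAktDKO mouse, 0.723-fold (log2 difference -0.47, exact permutation test, two-sided p = 0.1, adjusted p = 0.175 over 7 ratios). By contrast, Ak1/Ckm was 0.132, 0.120 and 0.124 against 0.125, 0.127 and 0.126. These values overlapped, with a log2 difference of -0.011 (exact p = 0.8, adjusted p = 0.90). Ampd1/Ak1, the AMP-removing over the AMP-making enzyme, was 0.650, 0.762 and 0.734 in the mAktDKO mice and 0.495, 0.546 and 0.596 in the control mice. It was higher in every mAktDKO mouse, 1.31-fold (exact permutation p = 0.1, adjusted p = 0.175). Ampd1/Ckm (1.302-fold) and Slc6a8/Ckm (1.13-fold) were likewise higher in every mAktDKO mouse, with the same p-values. Ckb/Ckm was 1.42-fold higher in the mean and overlapped (exact permutation p = 0.2, adjusted p = 0.28), and Gatm/Gamt overlapped at 0.927-fold (exact permutation p = 0.9, adjusted p = 0.90). No ratio could pass 0.05 with 3 mice a group. The separation of Ampd1/Ak1 and Ampd1/Ckm follows from the single genes, whose groups lay apart in opposite directions with TMM scaling.

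**Figure D3:**
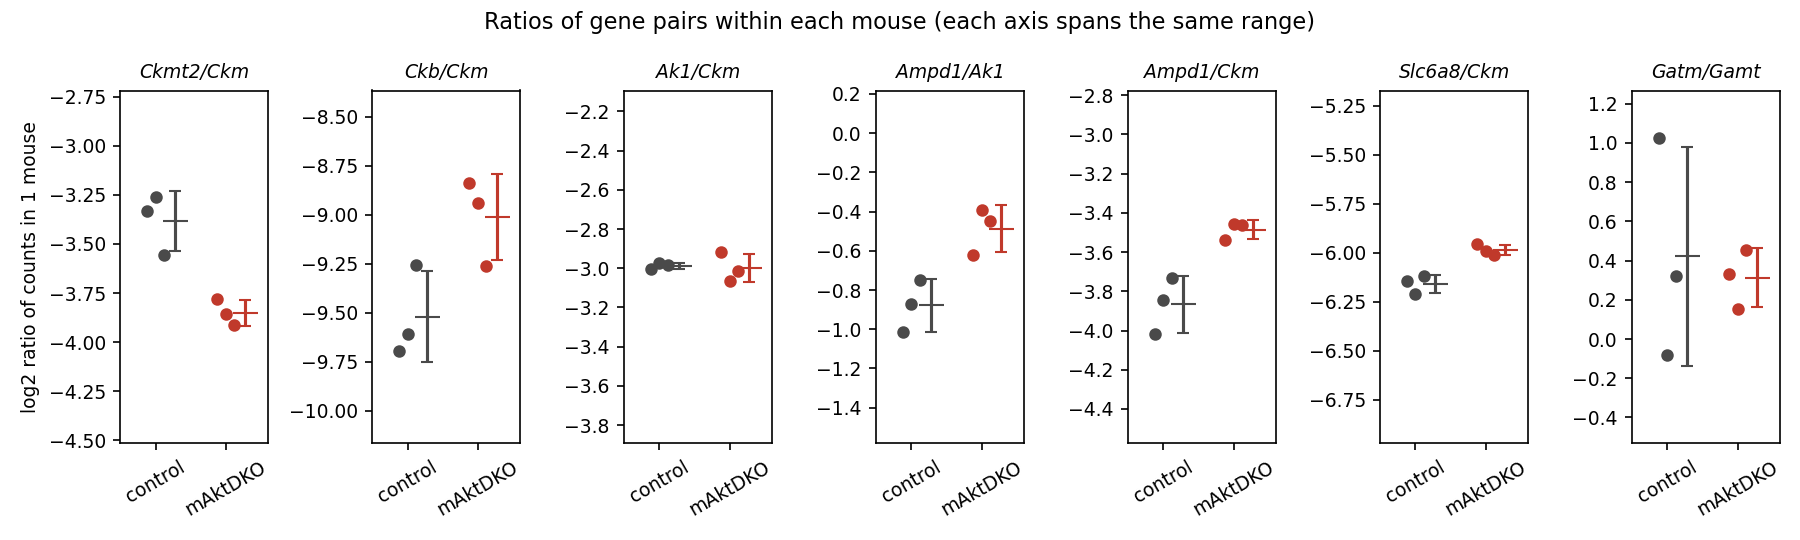
Log2 ratio of the counts of 2 genes in the same mouse on the vertical axis, for 7 pairs, with control mice in gray and mAktDKO mice in red (n = 3 each) and the mean ± SD beside the points. All axes span the same range. Ckmt2/Ckm separates downward, Ampd1/Ak1, Ampd1/Ckm and Slc6a8/Ckm separate upward, and Ak1/Ckm overlaps between the groups.

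Markers of the muscle's cell types were read in the same mice. The fast-twitch label was checked with Myh4, the fastest myosin heavy chain, which was abundant at 49979 ± 2958 CPM in the mAktDKO mice and 50609 ± 4435 CPM in the control mice (SD, n = 3 each), and with the slow myosin Myh7, at 168 to 637 CPM. The 10 fast-fiber markers summed to 109436 to 123147 CPM in the mAktDKO mice and 126780 to 137624 CPM in the control mice, and all 10 had a negative log2 fold change (8 of 10 with library totals). The largest part of this sum was Myh4, at a log2 fold change of -0.018. Myh2, another part, had 9177 CPM in control mouse 2, against 4440 and 4624 CPM in control mice 3 and 4. Set against that sum in the same mouse, an alternative chosen after seeing the data, the difference of Ckm was -0.012 and that of Ak1 -0.023 on the log2 scale, with overlapping groups. The difference of Ckmt2 was -0.48 without overlap, and that of Ckb was 0.50 with overlap. Slc6a8 (0.16, turned from below 0), Ampd1 (0.37), Gamt (0.78) and Gatm (0.67) were higher in every mAktDKO mouse. This sum was itself lower in every mAktDKO mouse with TMM scaling. Relative to it, the median of the 12856 genes above 0 in every mouse lay at 0.23. Of all tested genes 37.9% did not overlap relative to the sum, 33.8% higher and 4.17% lower. In a whole muscle, fewer cells of a type and less RNA per cell cannot be told apart.

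Markers of other cell types were read in the same way, beside Ckb, Gatm and Gamt, which were at a low level in the whole muscle. Which cells made the RNA of these genes was not measured. The markers of leukocytes summed to 44.3 to 54.6 CPM in the mAktDKO mice and 30.6 to 43.9 CPM in the control mice, with 4 of 4 tested markers above 0 and Cd3e at 0 or 1 counts. Fibro-adipogenic markers summed to 16102 to 20497 against 7274 to 16462 CPM (4 of 5 above 0, median log2 difference 0.57). That median was 0.22 without control mouse 2, the lowest, and 0.28 without mAktDKO mouse 2. Most of this sum was Col1a1, with 17588 of 19084 CPM in mAktDKO mouse 1, and the groups of Col1a1 overlapped. Adipocyte markers summed to 51.5 to 151 against 40.0 to 84.5 CPM (5 of 5) and endothelial markers to 394 to 471 against 329 to 439 CPM (3 of 5). Schwann cell markers summed to 378 to 490 against 311 to 393 CPM (4 of 5) and hemoglobin genes to 146 to 313 against 109 to 163 CPM (4 of 4). The hemoglobin count was 3 of 4 with limma voom, without mAktDKO mouse 1 and without control mouse 2. The hemoglobin sum includes Hbb-bs and leaves out Hbb-b1, both described at the end. Smooth muscle markers summed to 478 to 573 against 428 to 501 CPM (2 of 5 above 0) and satellite cell markers to 22.6 to 27.3 against 18.3 to 29.6 CPM (3 of 3). Slow-fiber markers summed to 680 to 1317 against 607 to 884 CPM (6 of 7 above 0), and neuronal markers were at most 0.302 CPM. With library totals 5 of 5 smooth muscle and 5 of 5 endothelial markers were above 0. Without 1 mouse the smooth muscle count above 0 was between 1 and 4 of 5, and the satellite cell count was 1 of 3 without mAktDKO mouse 2 or control mouse 3 and 2 of 3 without control mouse 2. None of the 53 tested markers passed an adjusted p of 0.01 in edgeR. An unadjusted p under 0.05 was found for 25 of them (20 higher), beside 24.5% of all genes, and DESeq2 called 6 of the 46 to which it gave an adjusted p, beside 3.55% of all genes. Their part in the differences of the 8 genes was not tested.

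The wider pathway was described with lists of 40 other genes, of which 33 were tested. None passed an adjusted p under 0.01 in edgeR or limma voom, and 14 had an unadjusted p under 0.05 in edgeR (2 higher, 24.5% of all genes having such a p). At an adjusted p under 0.05, 1 passed (Nt5c1a, lower, though not in every fit without 1 mouse). Of the 33, 24 had a log2 fold change below 0, beside 47.5% of all tested genes. Their median log2 fold change was -0.17, beside 0.017 for all genes; with library totals it was -0.031 beside 0.16, and 18 of 33 were below 0 where 70.4% of all genes were above 0. With TMM scaling every mAktDKO mouse was below every control mouse in 15 of them, and above in 2. Of all tested genes 16.6% were lower and 14.6% higher in this way. With library totals some of the 15, Myom2 and Vdac2 among them, overlapped. DESeq2 at an adjusted p under 0.01 called 7 of the 28 genes to which it gave an adjusted p, all lower: Adssl1, Nt5c1a, Nme1, Slc25a3, Vdac1, Slc25a4 and Myom3. Of all genes with such a p, it called 3.55%, with 2.61% lower.

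**Figure D4:**
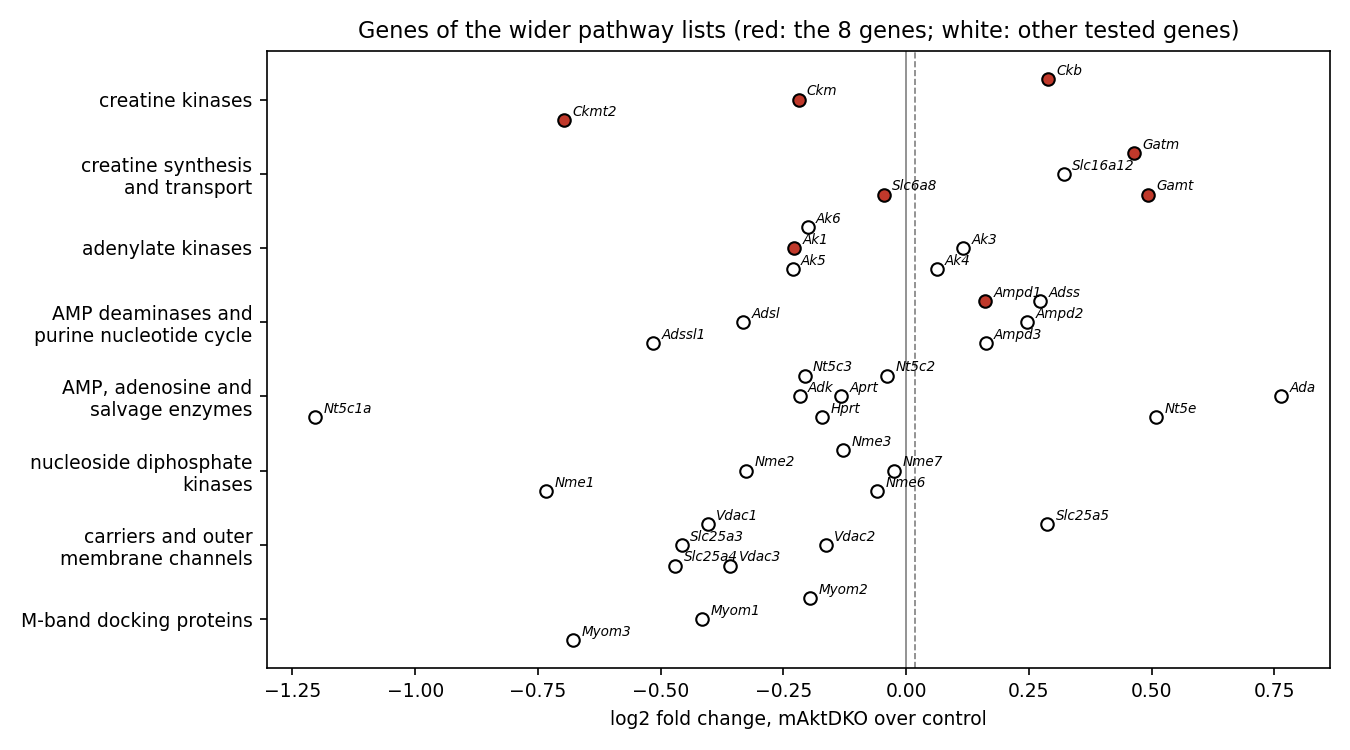
Log2 fold change of mAktDKO over control mice on the horizontal axis for the tested genes of 8 pathway lists on the vertical axis, with 1 gene left out. Red circles are the 8 genes, white circles other genes of a list, the solid line is 0 and the dashed line the median of all tested genes. Nt5c1a at -1.20 is the gene farthest to the left, and 5 of the 6 carriers and channels and all 3 M-band genes lie left of 0.

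The proteins that carry adenylates and phosphate across the mitochondrial membranes are partners of Ckmt2, and 5 of the 6 tested were below 0 with groups that did not overlap, beside 16.6% of all genes lower without overlap. That separation is on the TMM scale. With library totals 5 of 6 were below 0, and the groups of Vdac2 overlapped. Slc25a4, the ADP/ATP carrier of heart and skeletal muscle, had 2068, 1792 and 1979 CPM with the deletion and 2977, 2773 and 2341 CPM in controls. Its log2 fold change was -0.47 (standard error 0.12, edgeR adjusted p = 0.0691). The phosphate carrier Slc25a3 had means of 431 ± 17.4 and 592 ± 58.8 CPM (log2 fold change -0.46, edgeR adjusted p = 0.0557), and the outer membrane channel Vdac1 had 899 ± 71.4 and 1191 ± 59.7 CPM (-0.40, edgeR adjusted p = 0.0623). The exception was Slc25a5, the ADP/ATP carrier of proliferating and other non-muscle cells, which was higher in every mAktDKO mouse (49.7 against 40.7 CPM, log2 fold change 0.29). The median of the list was -0.38, and -0.24 with library totals.

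The M-band, the middle line of the sarcomere, docks part of the cytosolic creatine kinase. Its myomesins were below 0 in 3 of 3 without overlap with TMM scaling, beside 16.6% of all genes. With library totals the groups of Myom2 overlapped, at a log2 fold change of -0.058. Their median was -0.42, and -0.28 both with library totals and without control mouse 2. Myom3 had means of 134 ± 14.1 and 215 ± 51.1 CPM (log2 fold change -0.68, standard error 0.16, edgeR adjusted p = 0.0653), Myom1 a log2 fold change of -0.42 (adjusted p = 0.101, and -0.28 without control mouse 2) and Myom2 -0.19 (adjusted p = 0.233).

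Around Ampd1, the next steps of the purine nucleotide cycle had lower means in the mAktDKO mice, while that of Ampd1 was higher. Adssl1, the muscle adenylosuccinate synthase that begins the return of IMP to AMP, had 509, 454 and 577 CPM with the deletion and 902, 644 and 655 CPM in controls. The groups did not overlap, and control mouse 2 was the highest. Its log2 fold change was -0.51 (standard error 0.15, edgeR adjusted p = 0.0913) and was -0.34 without control mouse 2 (adjusted p = 0.137). Adsl, the lyase of the following step, had 70.3 ± 3.56 and 88.4 ± 6.87 CPM (log2 fold change -0.33, adjusted p = 0.0761). Adss, the other adenylosuccinate synthase, stood at a log2 fold change of 0.27 (adjusted p = 0.248, and 0.17 without mAktDKO mouse 1 and 0.18 without control mouse 2), and 3 of the 5 tested genes of this list were above 0 in both scalings.

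Among the genes that degrade AMP or salvage purines, 6 of 8 were below 0, and 4 of 8 with library totals. Nt5c1a, the cytosolic nucleotidase that turns AMP into adenosine in muscle (chr4:123201230-123225339), had 4.31, 3.06 and 4.05 CPM with the deletion and 8.46, 9.78 and 8.01 CPM in controls. The groups were far apart relative to their spread, at a level of 51 to 134 counts a mouse. Its log2 fold change was -1.20 with a 95% interval from -1.59 to -0.82 (standard error 0.17, edgeR adjusted p = 0.0260). The edgeR adjusted p rose to 0.0966, 0.127 and 0.0955 without mAktDKO mouse 1, 2 or 3 and to 0.0789 without control mouse 3. Without 1 mouse the log2 fold change lay between -1.31 and -1.06. Nt5c3, a pyrimidine nucleotidase, stood at a log2 fold change of -0.21 (adjusted p = 0.154), and Nt5e, which makes adenosine on the cell surface, 0.51 (adjusted p = 0.158). Ada, which deaminates adenosine, was higher in every mAktDKO mouse at 4 to 18 counts a mouse.

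The nucleoside diphosphate kinases, which pass phosphate from ATP to other nucleotides, were below 0 in 5 of 5 with a median of -0.13. This turned with library totals (2 of 5, median 0.012) and without control mouse 2 (2 of 5, median 0.017), while the median was -0.31 without mAktDKO mouse 1, -0.26 without mAktDKO mouse 2 and -0.25 without control mouse 3. Relative to the median of all tested genes, the list median was -0.146 with TMM and -0.144 with library totals. Without control mouse 2 it was -0.00065 on that measure. Nme1 had 10.7 ± 2.25 and 17.9 ± 2.53 CPM (log2 fold change -0.73, edgeR adjusted p = 0.0602), Nme2 a log2 fold change of -0.33 (adjusted p = 0.128) and Nme3 -0.13 (adjusted p = 0.804). The 5 tested adenylate kinases other than Ak1 were 2 above and 3 below 0 with overlapping groups (3 above and 2 below with library totals), and those with the smallest p were Ak6 (-0.20, adjusted p = 0.302) and Ak3 (0.12, adjusted p = 0.428). Ak3 was at 0.059 without control mouse 2, 0.18 without control mouse 3 and 0.25 with library totals, and Ak6 at -0.063 with library totals. The remaining creatine transporter of the lists, Slc16a12, stood at a log2 fold change of 0.32 with overlapping groups (adjusted p = 0.421), and at 0.23 to 0.48 when 1 mouse was left out, the highest without control mouse 3.

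The genes whose log2 CPM ran most like that of each gene over the 6 mice were listed as a description, among 7521 genes with a mean of at least 10 CPM. Each pair of values at a point comes from the same library, the points fall into 2 genotypes, and Pearson's r is given with no test. Ckmt2 ran closest to 2 other genes of mitochondrial energy supply, Ndufs4 (a complex I subunit, r = 0.9998) and Atp5a1 (the ATP synthase alpha subunit, r = 0.997). The closest to Ckm were Arfrp1 (0.999) and Tarsl2 (0.998), and to Ak1 Serac1 (0.996) and Asna1 (0.995). For Ampd1 they were Brix1 (0.995) and Zfp655 (0.989), and for Slc6a8 Tigar (0.991) and Med28 (0.989). Those of Ckb were Atxn10 (0.987) and Krtcap2 (0.985), of Gamt Ret (0.998) and Man1c1 (0.996), and of Gatm Ssbp3 (0.989) and Prex1 (0.988). For Gamt, control mouse 2 lay apart at a log2 CPM of 2.55, against 3.46 to 3.90 in the other mice. Its r was not computed without that mouse.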

How the data were processed

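RNA of EDL from 3 mAktDKO and 3 control mice was analyzed. The authors sequenced rRNA-depleted, directional libraries (paired-end, 37 bp), mapped reads to mm10 with STAR (2.6.1b in the submitters' processing notes) and estimated gene counts with RSEM 1.3.1, which divides reads among similar genes. The deposited values are these expected counts per gene symbol, not scaled between mice, and 3.36% to 4.09% of a mouse's values were not whole. The authors' own tests used DESeq2. Here expected counts were rounded, genes were kept by filterByExpr (minimum count 10), and TMM-scaled libraries entered the quasi-likelihood test of edgeR 4.0.16 in R 4.3.3 with genotype alone, with Benjamini-Hochberg adjustment over all 12892 genes and a call at adjusted p under 0.01. The standard error is the log2 fold change divided by the square root of F. Ratios used counts plus 1, with exact permutation over mice. The likeness search used log2 CPM with a prior count of 2. Transcript lengths come from the longest principal transcript with a RefSeq match in GENCODE. Named are the 8 genes, in each pathway list the 3 other genes with the smallest p, Akt1, Akt2, and for each gene the 2 most alike; Ckmt1, Slc25a5, Ada and the marker genes stand outside this rule and were added after their values were seen. The result of 1 named gene is not reported here. The rule for the 8 genes names symbols only, but genes and lists were chosen with earlier results of these data known. On simulated counts with 200 genes changed 2-fold, edgeR recovered 63.5% (7 false calls) and DESeq2 1.42.0 recovered 69.5% (14 false calls). None of the 8 genes had an estimate of 2-fold, so this recovery does not apply to changes of their size. On the data the tools lay further apart, with 3 genes called by edgeR and 341 by DESeq2. Alternatives were other scalings, DESeq2, limma 3.58.1 voom, other filters, an adjusted p of 0.05, leaving out each mouse, and other denominators.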

Additional observations from a re-analysis of the deposited data

How the results depend on the processing

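No paired analysis was possible because mice of the control group are numbered 2 to 4 in the table but 1 to 3 in the labels, which ties each of them to its group only. Of all tested genes, 3 were called. The count was 152 at an adjusted p under 0.05 (34 higher, 118 lower), 341 with DESeq2 (90 higher, 251 lower, of 9616 genes with an adjusted p) and 32 without the filter on low counts (3 higher, 29 lower). It ranged from 0 to 8 when 1 mouse was left out. It was 0 without any one of the mAktDKO mice (2441, 1871 and 2794 genes at an unadjusted p under 0.05) and 8 without control mouse 2. Of the 8 shuttle genes 0 were called, 1 at an adjusted p under 0.05 and 1 with DESeq2, Ckmt2 in both (log2 fold change -0.70, DESeq2 adjusted p = 2.56e-07), and 0 in every fit without 1 mouse. Of the other pathway genes 0 were called, 1 at an adjusted p under 0.05, 7 with DESeq2, 1 without the filter (Nt5c1a, adjusted p = 0.00881), and 0 in every fit without 1 mouse. Slc6a8 went from -0.046 to 0.091 with library totals and to 0.16 relative to the fast-fiber markers. The median of all tested genes went from 0.017 to 0.16 with library totals. Relative to the fast-fiber markers, the median of the 12856 genes above 0 in every mouse was 0.23. Relative to the median of all genes Slc6a8 stayed at -0.063 and -0.065 with TMM and library totals. The log2 difference of Ak1/Ckm ranged from -0.050 to 0.022 and that of Gatm/Gamt from -0.36 to 0.19 when 1 mouse was left out. Nme3 went to 0.012 with library totals, by the same shift, and ranged from -0.31 to 0.10 when 1 mouse was left out (0.071 without mAktDKO mouse 2, 0.10 without control mouse 2). The cause of the turns without 1 mouse was not tested. Akt2 missed the threshold in 3 fits without 1 mouse (adjusted p 0.0165 to 0.0208). The log2 fold changes of the other 7 shuttle genes kept their sign under every scaling, test, filter and left-out mouse. Among the 8 genes depth is lowest for Gamt (82 counts in the lowest mouse), and among the other named genes Ada has 4 to 18 counts, Slc16a12 22 to 44, Nme3 30 to 51 and Nt5c1a 51 to 134.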

Other observations

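A marker of another tissue had counts in the mAktDKO mice only and was chosen after its values were seen. Hbb-bs, an adult beta-globin gene (chr7:103826523-103827928), had 370, 154 and 146 counts in the mAktDKO mice (23.5, 9.23 and 10.01 CPM) and 0 counts in every control mouse, where 3 counts would be 0.210 to 0.227 CPM. It lies on the chromosome of Ckm, 84.4 Mb away. The adult beta-globin genes are near-identical copies among which reads can be divided, so the value of any one is uncertain. Hbb-b2 and Hbb-bt have the same value in every mouse. Hbb-b1 had 174, 150 and 78.6 CPM with the deletion and 132, 114 and 79.7 CPM in controls. Other markers also lay apart but had counts in both groups, such as Hba-a2 at 134, 123 and 103 CPM with the deletion and 97.7, 25.9 and 46.9 CPM in controls. The labels give both groups the same strain, and whether the groups are alike at the beta-globin locus was not tested, nor was what sets the values of Hbb-bs.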
